A study of Mus musculus with 14 samples.

Results

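Heterotrimeric G protein subunits and regulators of G protein signalling (RGS) were examined in 14 single retinal ganglion cells (RGCs), the output neurons of the eye. The genes were chosen by symbol alone: all G protein alpha, beta and gamma subunits and all numbered RGS genes that the array's annotation gives to a probe set of 1 gene, with the Gnas antisense gene left out. They came to 50 of the 18193 genes measured, made up of 15 alpha, 5 beta, 11 gamma and 19 RGS genes. The cells came from adult mice of mixed strain that carried 1 copy of Parvalbumin-cre (129P2/OlaHsd) and 1 copy of the Tomato reporter Ai9 (C57BL/6 and 129 SV), with the strains as the labels give them. The study's methods instead describe the PV-Cre line as of segregating C57BL/6 and 129P2 origin and the reporter as kept on C57BL/6J. In these mice Cre follows the parvalbumin gene Pvalb, and any cell that has ever made Cre stays red, so the red label reports past as well as present Cre. Red cells were picked from dissociated retinas, each cell was amplified separately by 35 cycles of PCR, and each filled 1 Affymetrix Mouse430_2 array. All 14 cells form 1 group, no comparison group was analysed here, and no animal is named for any cell, so all values below are descriptions of these cells without a test.

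A G protein is a switch made of an alpha subunit, which binds GTP, and a paired beta and gamma subunit. A receptor on the cell surface turns the switch on, the alpha subunit and the beta-gamma pair then act on enzymes and channels, and the alpha subunit turns itself off by splitting its GTP. RGS proteins speed up that last step and so shorten the response. In the retina these proteins carry the light response of rods and cones, the glutamate response of ON bipolar cells, and the slow modulation of ganglion cells by transmitters such as GABA, glutamate, serotonin and dopamine.

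Detection in a cell required a probe set to read 8-fold or more above the array's median, a threshold that lay between 64.2 and 439.7 signal units. Of the 9 RGC markers measured, 8 or 9 were detected in every cell. Cells 3 and 6 stood apart in holding 10 and 9 of 12 rod markers other than transducin, against 0 to 4 in each of the other 12 cells. Cells 5 and 13 stood apart in depth, with 2540 and 2702 genes detected against 3570 to 6849 in the others. The ratio of the 3' to the 5' Gapdh control, which rises as transcripts are cut short, was highest in cell 14 at 2.61 and in cell 13 at 1.95, and lay between 1.09 and 1.55 elsewhere. A gene that was not detected in an amplified single cell may still have been expressed there.

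Members of these families were found more widely than most genes. Of the 50 members, 26 (52%) were detected in at least 7 cells, against 24.8% of all genes measured, and 6 were detected in all 14 cells, against 2.64% of all genes. The median member was detected in 7 cells and the median gene in 1. Without cells 3 and 6, 25 members were found in at least 6 of the 12 cells left and 6 in all of them, and without cells 5 and 13 the counts were 26 and 6. In at least 1 cell 39 members were detected (58.2% of all genes were), and 11 members were detected in none (41.8% of all genes). By class, 9 of 15 alpha, 3 of 5 beta, 4 of 11 gamma and 10 of 19 RGS genes were found in at least 7 cells. The chosen genes belong to families known to be strong in neurons, so the contrast with all genes describes the families' place in these cells and is no test.

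**Figure D1:**
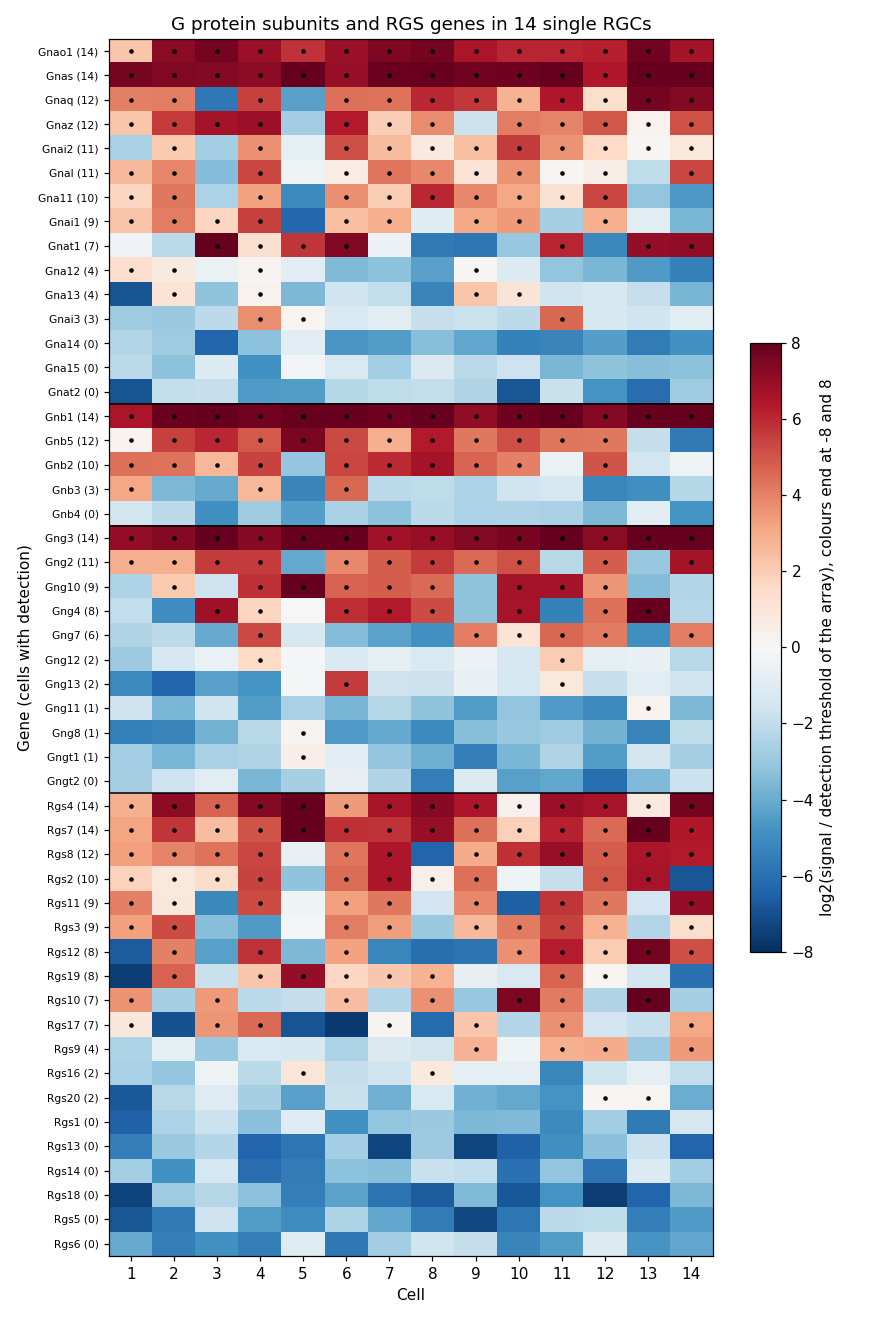
Signal of the 50 member genes in each of the 14 cells, as log2 of the signal over the detection threshold of that array, with a dot where the gene was detected and the number of detecting cells in brackets. Genes are grouped, from top to bottom, into alpha, beta, gamma and RGS genes; 6 rows are filled in all 14 cells and 11 rows hold no dot.

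Among the 6 members found in every cell were a Gs and a Go alpha subunit, a beta and a gamma subunit and a pair of RGS genes. Gnas on chromosome 2 encodes Gs alpha, which activates adenylyl cyclase. Its probe set (1450186_s_at) read from 11210 in cell 12 to 84497 in cell 1, with a median of 30615. Gnao1 on chromosome 8 encodes Go alpha, the major alpha subunit of brain membranes. It (1421152_a_at) read from 2050 in cell 1 to 24193 in cell 3, with a median of 14643, so that cell 1 was the highest of the 14 for Gnas and the lowest for Gnao1.

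Gnb1 on chromosome 4 encodes the beta 1 subunit, and Gng3 on chromosome 19 a gamma subunit known mainly from neurons. Gnb1 (1454696_at) read from 17884 to 135722 with a median of 35974, and Gng3 (1417428_at) from 12745 to 88789 with a median of 32004. By these probe sets both were lowest in cell 4 and highest in cell 13. Their signals moved together over the 14 cells (Pearson's r = 0.87, Spearman's rho = 0.86, and r = 0.79 without cells 4 and 13). Both also ran against the number of genes detected in the cell, with r of -0.84 for Gnb1 and -0.73 for Gng3. With the linear effect of that number removed, r of the pair was 0.70, and after quantile normalization between arrays it was 0.56. The part of array scaling in the pair was not tested beyond these values. A second, dimmer Gnb1 probe set (1417432_a_at), detected in 7 cells, read 4.25 in cell 13 and 1282 in cell 4. Its r with the first was -0.51, so the order of the cells for Gnb1 depends on the probe set. The pair with Gng3 was not tested on it.

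Rgs4 and Rgs7 on chromosome 1 were the RGS genes of every cell, and both varied far more than the subunits above. Rgs7 encodes the R7 regulator that acts on Go together with the Gnb5 protein. Its signal (1450659_at) ran over 41.4-fold, from 667 in cell 3 to 27602 in cell 13, with a median of 5833. Rgs4, a small regulator of Gi and Gq signals known for quick changes with neuronal activity, ran over 98.2-fold (1416286_at), against 6.97-fold to 11.8-fold for the 4 subunits. It read 185 in cell 13, 374 in cell 10 and 1182 in cell 6, then 3108 in cell 1 and 3149 in cell 3, and between 12193 and 18127 in the other 9 cells. By this probe set 9 cells shared a level, with a wide tail below it. A second Rgs4 probe set (1416287_at), detected in 10 cells, did not show that level, since among those 9 cells it read from 15.8 in cell 11 and 47.7 in cell 5 to 11652 in cell 9, and its r with the first was 0.42.

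**Figure D2:**
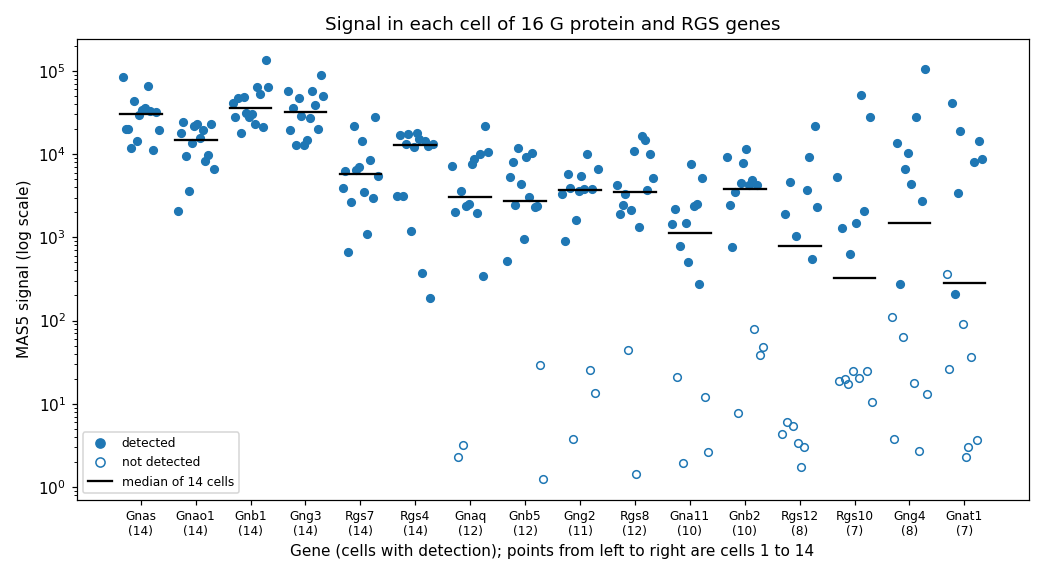
MAS5 signal (log scale) of 16 member genes in each cell, with filled points for detected and open points for undetected values and a bar at the median of the 14 cells. The 6 genes on the left are filled in all cells; Rgs4 has 9 cells between 12193 and 18127 and a tail down to 185, and Gnaq, Rgs12 and Gna11 show wide empty ranges between filled and open points.

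Rgs10 and Gng4 were highest in the 2 cells where Rgs4, by its brightest probe set, was lowest. These genes were singled out after their values were seen, and the letters of their start regions are given to place them, taken from RefSeq on build GRCm38.p6. Each window runs from 250 bases before to 50 bases after the annotated start, 5' to 3' on the gene's strand, and 37 of the 50 members had such a window. Capitals mark matches, on either strand, to a TATA box (TATAAA), a GC box (GGGCGG) or a cAMP response element (TGACGTCA). Rgs4 lies at chr1:169747593-169747892 on the minus strand, Rgs10 at chr7:128418123-128418422 on the minus strand, and Gng4 at chr13:13783809-13784108 on the plus strand, the first of its 2 annotated windows.
Rgs4: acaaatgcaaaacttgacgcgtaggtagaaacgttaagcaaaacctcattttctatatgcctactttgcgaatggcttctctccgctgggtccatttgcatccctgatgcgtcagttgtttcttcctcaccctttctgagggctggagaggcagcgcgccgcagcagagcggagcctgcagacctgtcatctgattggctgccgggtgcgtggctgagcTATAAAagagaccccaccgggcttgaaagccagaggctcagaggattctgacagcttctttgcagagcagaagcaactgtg
Rgs10: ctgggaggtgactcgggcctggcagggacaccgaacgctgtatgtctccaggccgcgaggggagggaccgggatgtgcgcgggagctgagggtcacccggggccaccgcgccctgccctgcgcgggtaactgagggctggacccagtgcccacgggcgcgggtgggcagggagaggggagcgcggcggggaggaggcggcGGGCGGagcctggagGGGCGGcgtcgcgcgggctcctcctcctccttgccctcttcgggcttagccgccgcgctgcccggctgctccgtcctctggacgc
Gng4: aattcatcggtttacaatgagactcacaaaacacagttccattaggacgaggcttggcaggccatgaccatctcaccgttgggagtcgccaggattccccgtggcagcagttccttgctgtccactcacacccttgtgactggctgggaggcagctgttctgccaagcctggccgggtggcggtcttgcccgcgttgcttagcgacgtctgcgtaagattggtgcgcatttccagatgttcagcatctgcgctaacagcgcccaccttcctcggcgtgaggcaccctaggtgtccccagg

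The 3 windows were unlike in make-up. The Rgs4 window held 1 TATA box match and 13 CpG dinucleotides at 53% G and C, the Rgs10 window 2 GC box matches and 34 CpG at 76%, and the Gng4 window none of the motifs and 17 CpG at 58.3%. Over the 32851 windows of this length in the table, 13.6% held the TATA letters, 35.7% the GC box letters and 1.79% the cAMP element, with a median of 7 CpG and 52.7% G and C. A match is a run of letters and says nothing here about what binds there.

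Rgs10 encodes a short regulator of Gi family subunits. It (1416882_at) was detected in 7 cells, at 51448 in cell 10, 27888 in cell 13, 5264 in cell 1, 2083 in cell 11, 1465 in cell 8, 1310 in cell 3 and 623 in cell 6, and read at most 24.8 in the other 7. The 5 cells with the lowest Rgs4 all held Rgs10, and cells 8 and 11 held Rgs10 beside a high Rgs4 signal of 18127 and 14279. Over the 14 cells r of Rgs4 and Rgs10 was -0.81 (rho = -0.59), and r was -0.54 without cells 10 and 13, so much of the size of the relation rests on those cells. By the other Rgs4 probe sets r was -0.60 (rho = -0.38, 1416287_at) and -0.56 (rho = -0.29, 1448285_at), so the relation was weaker by rank on them.

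Gng4, a gamma subunit of the brain, was detected in 8 cells (1447669_s_at). It read 105908 in cell 13, 27736 in cell 10, 13564 in cell 3, 10286 in cell 7, 6612 in cell 6, 4360 in cell 8, 2700 in cell 12 and 276 in cell 4, and at most 112 in the others. Cells 4, 7, 8 and 12 held Gng4 beside an Rgs4 signal of at least 12193. Its r with Rgs4 was -0.71 (rho = -0.68), and -0.45 without cells 10 and 13, and by the other Rgs4 probe sets r was only -0.16 (1416287_at) and -0.32 (1448285_at), so that the relation to Gng4 depends on the probe set. Cells 10 and 13 were both low in genes detected, at 3570 and 2702 against a median of 4560.5 over the 14 cells. The part of depth was not tested for these pairs beyond the r of -0.78 and -0.72 with the effect of the number of genes removed.

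**Figure D3:**
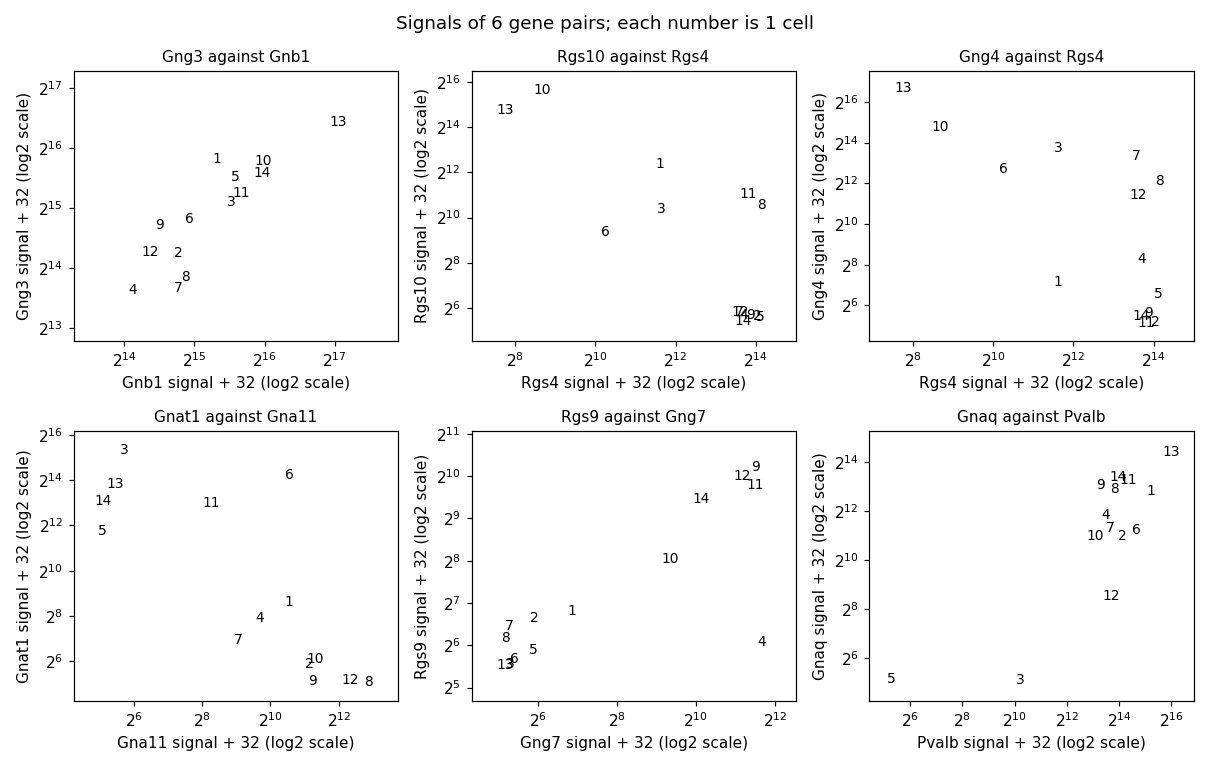
Signals of 6 gene pairs on log2 scales after adding 32, each number marking 1 of the 14 cells. Gnb1 and Gng3 rise together, and Rgs4 by its brightest probe set runs against Rgs10 and Gng4 with cells 10 and 13 at its low end. Gnat1 and Gna11 are both detected in 3 cells, 4 cells hold both Gng7 and Rgs9, and cells 3 and 5 are lowest for both Gnaq and Pvalb.

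Of the other alpha subunits, 4 of the 5 of the Gi/o family, which lower cyclic AMP, were detected in at least 7 cells. Besides Gnao1 these were Gnaz in 12 cells, from 129 in cell 13 to 12159 in cell 3, Gnai2 in 11 cells, from 115 in cell 13 to 14235 in cell 10, and Gnai1 in 9 cells, from 398 in cell 3 to 3725 in cell 4. Gnai3 was detected in 3 cells, 4, 5 and 11, and at more than 1000 in cells 4 and 11 alone. Gnal, the Gs family member known from olfactory neurons and striatum, was detected in 11 cells, from 126 to 3526. Gna12 and Gna13, which act on the cytoskeleton, were each detected in 4 cells, at no more than 1098 for Gna12 and 771 for Gna13. Other probe sets of the same gene passed where the chosen one did not for Gnai1 in cell 8 (13139), Gnai2 in cell 3 (680) and Gnaz in cell 9 (1755). The same held for Gna13 in cell 6 (up to 4407), cell 7 (up to 2252) and cell 12 (up to 654).

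The Gq family, which drives phospholipase C, was split between genes of most cells and genes of none. Gnaq (1455729_at, chromosome 19) was detected in 12 cells, from 340 in cell 12 to 22006 in cell 13, with a median of 5411 among them. It was at 2.30 in cell 3 and 3.17 in cell 5, at least 6.74 log2 units below the lowest detected value. Pvalb, the gene whose Cre line marked these cells, was also lowest in those cells, at 1146 in cell 3 and 7.27 in cell 5, against 8772 to 65384 in the others. Over the 14 cells and by 1455729_at, Gnaq was the only member with r of at least 0.7 to Pvalb (r = 0.83, rho = 0.61). It ranked 59th of the 6882 genes compared, and r was 0.48 without cells 3 and 5. Cell 13, the highest by this probe set and for Pvalb, read at most 89.5 on every other Gnaq probe set, below its threshold of 108.3. Cell 5 was below threshold on all Gnaq probe sets, and cell 3 on all but 1447593_x_at. The r of the other probe sets with 1455729_at ran from 0.08 to 0.55, and their r with Pvalb was not tested.

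Gna11, the close relative of Gnaq, was detected in 10 cells, with 3.74 log2 units between the highest undetected value of 20.8 and the lowest detected value of 277. It (1434254_at) was absent by this measure from cells 3, 5, 13 and 14 and highest in cell 8 at 7513 and cell 12 at 5180. A second Gna11 probe set (1449144_at) was detected in 5 cells, 2, 4, 7, 8 and 12. That probe set was highest in cell 7 at 7579 and read 133 in cell 8. Its r with the first was 0.36, so the order of the cells for Gna11 depends on the probe set. Pairs and like genes of Gna11 were not tested on it. By the chosen probe sets cells 3 and 5 had neither Gnaq nor Gna11 above threshold, though a further Gnaq probe set (1447593_x_at) read 206 in cell 3, over a threshold of 121.8. Gna15, the Gq family member of blood cells, and Gna14 were detected in no cell.

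The alpha subunit of rod phototransduction was also detected in cells without other rod genes. Gnat1, the rod transducin alpha subunit on chromosome 9 (1460212_at), was detected in 7 cells. It read 40909 in cell 3 and 19044 in cell 6, the cells with 10 and 9 other rod markers, but also 14374 in cell 13, 8680 in cell 14, 8081 in cell 11, 3372 in cell 5 and 207 in cell 4. Of the 12 other rod markers measured, none was detected in cells 5, 11 and 13, 2 in cell 14 (Rom1 and Rcvrn) and 1 in cell 4 (Rom1). Their summed signal was 115606 in cell 3 and 55577 in cell 6, against 218, 274 and 271 in cells 5, 11 and 13. The Gnat1 signal of those 3 cells thus stood without the rod genes that accompanied it in cells 3 and 6, on the only probe set that names the gene.

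The rod gamma subunit and the cone alpha and gamma subunits were near background. Gngt1, the rod gamma subunit, passed the threshold in cell 5 alone at 96.0, and read 20.0 in cell 3 and 61.6 in cell 6, the cells with rod markers. Gnat2 and Gngt2, the cone alpha and gamma subunits, were detected in no cell, with highest readings of 34.0 and 78.3. Rgs9, which with its anchor Rgs9bp ends the rod response, was detected in 4 cells at 673 to 1161 and in neither cell 3 nor cell 6, and Rgs9bp was detected in none. Gnb1, the beta subunit of rod transducin as of many other G proteins, was in all 14 cells.

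By the chosen probe sets Gnat1 was detected in 7 cells and Gna11 in 10 of the 14, so some overlap was bound to occur. Both passed the threshold in 3 cells, 4, 6 and 11, Gnat1 alone in 4 and Gna11 alone in 7. The share of gene pairs over all genes that overlap as little was not counted. The pair was singled out after its values were seen, as the 1 of 276 pairs with r of -0.7 or less. The r of Gnat1 and Gna11 was -0.80 (rho = -0.76), and -0.91 without cells 3 and 6, the cells with rod markers. Gnat1 showed r of -0.68 with Gnb2, and -0.90 without cells 3 and 6. Gna11 and Gnb2 were both undetected in cells 5, 13 and 14, which are low in genes or high in Gapdh ratio. Without cells 5, 11, 13 and 14 the r values were -0.74 for Gna11 and -0.55 for Gnb2. The number of genes detected had r of -0.50 with Gnat1, 0.65 with Gna11 and 0.67 with Gnb2. Over 8 alternatives, among them removal of its effect, r of Gnat1 ranged from -0.91 to -0.71 with Gna11 and from -0.90 to -0.54 with Gnb2. The part of depth was not tested beyond these values.

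Of the beta subunits, Gnb1 was accompanied by Gnb5 in 12 cells and Gnb2 in 10. Gnb5, the beta subunit that binds R7 regulators in place of a gamma subunit, read from 524 in cell 1 to 11921 in cell 5 where detected (1422208_a_at), and 28.9 in cell 13 and 1.26 in cell 14. A second, dimmer Gnb5 probe set (1447630_x_at) read 67.6 in cell 14, just over its threshold of 64.2. Cells 13 and 14 were the cells with the highest Gapdh ratio, and cell 13 held the highest Rgs7 signal of all. Gnb2, a widely expressed beta subunit, read from 765 in cell 3 to 11391 in cell 8 in 10 cells (1450623_at), and at most 79.9 in cells 5, 11, 13 and 14.

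Gnb2 and Gna11, the latter by 1434254_at, went together (r = 0.86, rho = 0.76, and r = 0.70 without cells 5, 11, 13 and 14). Both also followed the number of genes detected in the cell, with r of 0.67 for Gnb2 and 0.65 for Gna11. Over 8 alternatives, among them removal of the effect of that number, r of the pair ranged from 0.70 to 0.90. The part of depth in the pair was not tested beyond these values. The genes whose pattern was most like that of Gnb2, among 6882 genes detected in at least 4 cells, were Tmsb4x (r = 0.98), Srsf1 (0.96) and Lrrc49 (0.96), each detected in the same 10 cells. For Gna11 they were Arl3 (0.95), Dpy30 (0.93) and Cirbp (0.92). The r of Gnb2 with Gnai1 was 0.78 over all cells but -0.12 over the 10 cells that held Gnb2, so that relation rests on the 4 cells without it. Gnb4 was detected in no cell.

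Gnb3, the beta subunit of cones and ON bipolar cells, was detected in cells 1, 4 and 6, at 3822, 516 and 2694. Its partners in the ON bipolar response gave different cells: Gng13, a gamma subunit, was at 5450 in cell 6 and 209 in cell 11 (and 1065 in cell 14 by a second probe set), and Rgs11, an R7 regulator, was detected in 9 cells, from 221 in cell 2 to 8415 in cell 14. Cell 6 alone held all 3. Of the 7 bipolar markers measured, Trpm1, Cabp5 and Nyx were detected in no cell, Prkca in 8, Pcp2 in 4, Otx2 in cell 2 and Gpr179 in cell 8, with none of them in cell 6. The bipolar markers summed to 154 in cell 6, next to the lowest sum of 123 in cell 5. The highest sum of the 14 cells was 7644 in cell 2.

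Gamma subunits had the lowest median of the 4 classes, at 2 cells per gene, against 7 for RGS, 9 for alpha and 10 for beta genes. Gng2, common in brain, was detected in 11 cells, from 902 in cell 2 to 9962 in cell 10 (1428156_at), with 5.14 log2 units to the 3 undetected values. Gng10, a widely expressed subunit, was detected in 9 cells, from 518 in cell 2 to 29336 in cell 10, and read 23558 in cell 5, where the Gng2 probe set was at 3.78. A second Gng2 probe set read 26910 in cell 5 and 3404 in cell 11, so that the absence of Gng2 from those cells depends on the probe set. Gng8, Gng11 and Gngt1 passed the threshold in 1 cell each at no more than 134, and Gng12 in 2 at no more than 488. Gng5 was left out of the members because its 3 probe sets are shared with a pseudogene, and none of them was detected in any cell.

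Gng7, the gamma subunit that pairs with Gnal in striatal neurons, marked 6 cells. It read 3256 in cell 4, 2878 in cell 11, 2871 in cell 9, 2296 in cell 12, 1097 in cell 14 and 625 in cell 10, and at most 83.3 in the others (1455190_at). All 6 of these cells also held Gnal, but so did 5 cells without Gng7, and r of the pair was 0.21. The 4 cells with Rgs9, namely cell 9 at 1161, cell 12 at 1002, cell 11 at 852 and cell 14 at 673, were all among them (r = 0.81, rho = 0.70). The other 2 cells with Gng7 were cell 4, which had the highest Gng7 and Rgs9 at 35.3, and cell 10, where Rgs9 at 231 was below the threshold of 292.4. Without cells 4 and 11, the 2 cells farthest from the Gng7 median, r was 0.98. That setting leaves out cell 4, where Gng7 was high without Rgs9, so the higher r does not strengthen the relation.

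Pcp2, which holds back exchange on Gi and Go alpha subunits, was detected in cells 4, 11, 12 and 14, each of them a cell with Gng7. The dopamine receptor Drd1 was detected in cells 4, 5, 6, 11 and 12, so that 3 of its 5 cells had Gng7, beside 6 of all 14 cells. Rgs7bp, the membrane anchor of the R7 regulators, was detected in 8 cells, including all 4 with Rgs9. These partners were picked from 59 after their values were seen. The share of all genes that overlap the Gng7 or Rgs9 cells as much was not counted, so the overlaps are examples only.

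Of the R7 regulators, which require Gnb5, the members were thus Rgs7 in 14 cells, Rgs11 in 9, Rgs9 in 4 and Rgs6 in none. By its chosen probe set Gnb5 was above threshold in all of these cells apart from 13 and 14. Cell 14 carried Rgs7, Rgs9 and Rgs11 together, with Gnb5 at 1.26 on that probe set and 67.6 on the other. Of the R4 regulators, small proteins for Gi and Gq, Rgs8 was detected in 12 cells, from 1337 in cell 9 to 16453 in cell 10, and was at 1.43 in cell 8 and 43.6 in cell 5. Rgs8 is known from Purkinje cells, and the 4.94 log2 units between its detected and undetected values leave cells 5 and 8 clearly apart.

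Rgs2, an R4 regulator that favours Gq, was detected in 10 cells, from 154 in cell 8 to 11060 in cell 7. Its second-highest reading was 10522 in cell 13, and its lowest 0.550 in cell 14. Rgs3 was detected in 9 cells, from 167 to 5269. A further Rgs2 probe set read 9212 in cell 10, where the chosen one was below threshold. Rgs16 passed in cells 5 and 8 at no more than 197, though another of its probe sets read 2098 in cell 1 and 3185 in cell 2, and Rgs1, Rgs5, Rgs13 and Rgs18, known from blood and vessel wall cells, passed in none.

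Rgs12, a large R12 regulator, had a wide gap between detected and undetected values on its chosen probe set. It (1453129_a_at) read 21554 in cell 13, 9113 in cell 11, 4607 in cell 4, 3698 in cell 10, 2285 in cell 14, 1916 in cell 2, 1044 in cell 6 and 542 in cell 12, and at most 6.10 in the other 6 cells, 6.47 log2 units lower. With Gna11, Gnb2 and Rgs10 it was 1 of 4 members with a gap of at least 3 log2 units, among the 17 members detected in 4 to 10 cells (23.5%), a share near the 21.2% of all genes detected in 4 to 10 cells. The genes most like Rgs12 were Zfp788 (r = 0.79), Hk1 (0.78) and Vps33a (0.77), and those most like Rgs10 were Gpx4 (0.81), Plpbp (0.79) and Aldh1a3 (0.76), lower values than for Gnb2. Further Rgs12 probe sets were detected in no cell (1457511_at) and in cell 6 alone (1429380_at). Their r with the chosen one was -0.38 and -0.20, and cell 13 read 17.9 and 3.94 on them. The Rgs12 pattern thus rests on 1 probe set.

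The RZ regulators, which act on Gz, were detected in 8 cells for Rgs19, 7 for Rgs17 and 2 for Rgs20. Rgs19 ran from 145 in cell 12 to 8583 in cell 5, and Rgs17 from 143 in cell 7 to 1900 in cell 4, with a second Rgs17 probe set at 1773 in cell 8. Gnaz, the gene of Gz, was undetected in cell 5, where Rgs19 was highest. Rgs14, of the R12 group, was detected in none.

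Each cell held its own set of members. The number detected ranged from 14 in cell 5 to 30 in cell 4, with a mean of 22.2 ± 4.42 (SD, n = 14 cells). It followed the number of genes detected, which was 2540 in cell 5 and 6277 in cell 4, but cells 10 and 11 held 23 and 26 members with 3570 and 4342 genes. Every cell held at least 4 alpha, 1 beta, 2 gamma and 4 RGS genes. By the chosen probe sets Gnb1 was the only beta subunit detected in cells 13 and 14.

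**Figure D4:**
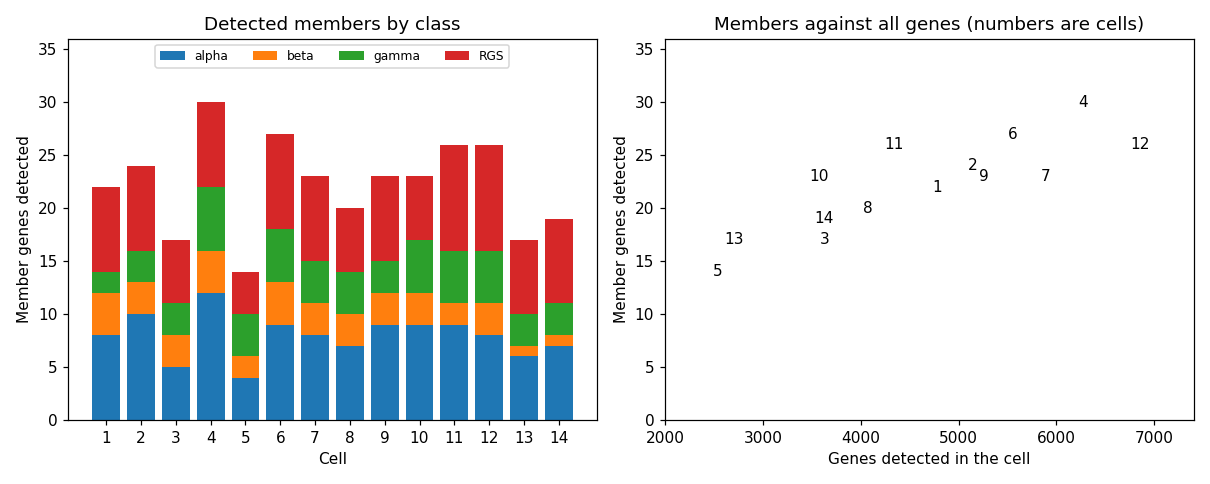
Left, the number of alpha, beta, gamma and RGS genes detected in each of the 14 cells, as stacked bars. Right, the number of members against the number of all genes detected, each number marking a cell; cell 5 has the fewest of both (14 and 2540) and cell 4 the most members (30).

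Across the 24 members found in 4 to 13 cells, few pairs had r of 0.7 or more in size. Of 276 pairs, 4 had r of at least 0.7 and 1 had r of -0.7 or less, with a median r of 0.12. With the 6 members of all cells added, 5 of 435 pairs had r of at least 0.7 and 4 had r of -0.7 or less. All pairs share the 14 arrays, their depth and their scaling, and the part of these in each r was not tested.

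Around the members, 59 partner genes of the pathway were measured, from lists of effectors, receptor kinases, chaperones and receptors, and 19 of them (32.2%) were detected in at least 7 cells, beside the 24.8% of all genes. Of 9 adenylyl cyclases 5 passed, among them Adcy1 and Adcy2, the neuronal calmodulin- and beta-gamma-stimulated forms, in 13 cells each. Adcy1 was missing from cell 3 and Adcy2 from cell 5. Of the 4 phospholipase C beta genes, which Gq activates, Plcb4 was detected in all 14 cells, from 292 to 39633, and Plcb1 in 12.

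Of the 4 GIRK channel genes, which beta-gamma pairs open, Kcnj5 and Kcnj9 were each detected in 9 cells, Kcnj3 in 6 and Kcnj6 in none. Among 9 receptor kinases and arrestins, Arrb1 was detected in all 14 cells and Grk3 in 12. Ric8a, a chaperone of Gi, Gq and G13 alpha subunits, was detected in 11 cells. Among 21 receptors 4 passed (19.0%, below the 24.8% of all genes), and 11 were detected in no cell (41.8% of all genes were). Those that passed were Gabbr1 of the GABA-B receptor in 14 cells, the glutamate receptors Grm4 in 11 and Grm7 in 9, and the serotonin receptor Htr1b in 11. Opn4, the melanopsin of light-sensitive ganglion cells that signals through Gq, was detected in none.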

How the data were processed

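Single tdTomato-positive RGCs (n = 14, 1 array each) were measured on Affymetrix Mouse430_2 arrays after oligo-dT reverse transcription, tailing and 35 cycles of PCR, which favour 3' ends and leave rare transcripts to chance. The values deposited by the authors are MAS5 signals, a linear intensity for each probe set. The MAS5 version is not stated in the labels or the paper. Every array had a 2% trimmed mean of 500.0. Of 45101 probe sets, 64 controls were left out. Probe sets of 1 gene (34945) were named by the array's annotation, with symbols updated through a GRCm38.p6 gene table (34741 matched), and where a gene had several, that with the largest average log2 signal was used. Detection meant at least 8 times the array median. Gaps are log2 of the lowest detected over the highest undetected signal. Correlations used log2(signal + 32), are given for description only and carry no p-value. Where r of a pair is given without 2 cells, these were the cells farthest from the median of 1 gene of the pair. The number of arrays limits the precision, and signals of different probe sets were not set against each other as levels.

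The members and lists were chosen with earlier results of these data known. The text accounts for every member by role, gives values for those in all cells, those in 4 to 10 cells with a gap of at least 3 log2 units, and the phototransduction and ON bipolar sets, and names up to 3 like genes for each gap member. Other members with values, the partners set beside Gng7 and Rgs9, and the pairs with Rgs4, with Pvalb and with Gnat1, were singled out after their values were seen. Alternatives changed the threshold (4 or 16 times the median, or 1000 signal units), the probe set rule, the normalization, the pseudocount and the cells included. Detection and correlation steps were tested on simulated data. In them background was drawn from low values and planted signals lay far above the threshold, so calls near the threshold were not tested. Python 3.11.15, numpy 2.4.6, pandas 2.3.3, SciPy 1.17.1 and matplotlib 3.10.9 were used. The cells may share animals, which the labels do not give.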

Additional observations from a re-analysis of the deposited data

Results flagged for a closer look

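Probe sets that were not chosen for a member gave 14 readings of at least 1000 in a cell where the chosen probe set was below threshold, for 8 members. The largest was Gng2 at 26910 in cell 5 (probe set 1418451_at, chosen probe set at 3.78), and the same probe set read 3404 in cell 11. By that probe set cells 5 and 11 would hold Gng2. Gnai1 read 13139 in cell 8 (1427510_at), Rgs2 9212 in cell 10 (1419247_at) and Gnaz 1755 in cell 9 (1426517_at).

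Gna13, found in 4 cells, read 4407 and 3271 in cell 6 (1430295_at and 1453470_a_at) and 2252 and 1866 in cell 7 (1422555_s_at and 1450656_at), so that pairs of its probe sets spoke for the same added cells. Rgs16, low by its chosen probe set, read 2098 in cell 1 and 3185 in cell 2 (1426037_a_at), with 1034 in cell 2 on a further one (1455265_a_at). Gng13 read 1065 in cell 14 (1447282_at) and Rgs17 1773 in cell 8 (1450693_at). For the 32 members with several probe sets, another probe set shared 120 of 218 detections and was detected at 17 of 230 non-detections. Which probe set is right in these cells was not tested.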

How the results depend on the processing

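The count of members in at least 7 cells ranged from 19 to 27 over 9 alternatives, against 26, while the share of all genes in at least 7 cells ranged from 15.3% to 30.7%, against 24.8%, and the share of members from 38% to 54%. The count of G protein subunits ranged from 13 to 17, against 16. At 4 times the median 6 members were detected in no cell, after quantile normalization 7, and at a fixed signal of 1000 it was 18, against 11. The fixed signal also gave a median of 3.5 cells per member, 17.2 members per cell and 12 pathway partners in at least 7 cells. Averaging all probe sets of a gene gave 2 members in all cells (against 6), a median of 2.5 cells, 16 members per cell, 6 RGS members (against 10) and 10 partners (against 19) in at least 7 cells, and a mean log2 signal of 6.05, against 7.28. It took Gnas to 1 cell, since its other probe sets were dim.

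Of 276 pairs, 5 had r of at least 0.7 in size; without a pseudocount 8 did, without cells 3 and 6 it was 11, and without cells 5, 11, 13 and 14 it was 9. The r of Gnai1 and Gnb2 turned to -0.12 without those 4 cells. The other Rgs4 probe sets gave r of -0.56 to -0.60 with Rgs10 and -0.16 to -0.32 with Gng4. Those probe sets, the setting without 4 cells, quantile normalization of correlations and removal of the gene number effect were chosen after seeing the data. No other named pair changed sign. Causes were not tested. No paired analysis was possible because there is 1 group. Signals near the array background, and members called by a single probe set (18 of 50), are least certain.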
